A study of Mus musculus with 22 samples.

Results

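The collagen genes of the mouse were followed across the brains of 22 aged animals. They were taken as every row of the gene count table whose symbol had the form Col, a number, the letter a and a number, which gave 44 of 56748 rows. Of these, 43 passed the filter on low counts and were tested together with the other genes (20026 in all), and the remaining one, Col10a1, had a mean of 0.246 CPM (counts scaled to a common library total) and is described by its level only. Collagens are matrix proteins whose chains wind around each other into a helix. Fibrillar collagens build the cable-like fibrils of meninges and vessel walls, type IV collagens form the sheet of the basement membrane that surrounds each brain vessel, and type VI collagens assemble into beaded filaments beside it. In the brain, most collagen is made by fibroblasts of the meninges and vessel sheaths and by cells of the vessel wall, while some collagens with a membrane anchor are made by neurons.

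All animals were male C57BL/6J mice. GW mice had been given permethrin at 200 mg/kg and pyridostigmine bromide at 0.7 mg/kg, chemicals used in the Gulf War, daily for 10 days from 10 weeks of age, and Ctrl mice the vehicle. At 17.5 months, GWCBD30 mice received cannabidiol (CBD) at 30 mg/kg in Tween 80 and PBS for 28 days and then on alternate days for 2 weeks, and the other mice the vehicle. Lipopolysaccharide (LPS, a bacterial cell wall component that sets off inflammation) at 0.33 mg/kg, or PBS, was injected intraperitoneally 24 hours before the brain was taken. The groups were GWCBD30LPS (4 brains), GWCBD30 (4), GWVehLPS (4), GWVeh (4), CtrlVehLPS (3) and CtrlVeh (3). No unexposed mice received CBD. RNA came from the whole brain, so fewer cells of a type and less RNA per cell cannot be told apart.

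The libraries held 17152595 to 31150515 counts, of which 7630 to 14638 counts, or 0.0412% to 0.056%, fell on collagens. A floor of 3 counts corresponded to 0.0975 to 0.176 CPM. Markers of neurons, astrocytes, oligodendrocytes and microglia were present in every library. The library CtrlVehLPS replicate 1 stood apart: its pancreas markers summed to 266 CPM, against 2.76 to 4.61 CPM in the other 21 libraries, and its cerebellar neuron markers to 160 CPM, against 891 to 1535 CPM. Olfactory bulb markers summed to 37.6 to 60.7 CPM in GWCBD30LPS and 35.4 to 44.1 CPM in GWCBD30 brains, 35 to 74.4 CPM in GWVehLPS and 39.4 to 43.7 CPM in GWVeh brains, and 67.4 to 136 CPM in CtrlVehLPS and 34.8 to 38.9 CPM in CtrlVeh brains. All 9 of them were positive for LPS averaged over arms (median log2 fold change 0.656, 4 called higher, against 2.49% of all genes). Within arms the median was -0.033 in exposed CBD mice (5 of 9 negative) and 0.549 in exposed vehicle mice, with 0 called in either. In controls it was 1.384, with 4 called higher, against 0.414% of all genes. The averaged and control values include CtrlVehLPS replicate 1. Counts of collagens in comparisons that include that library are given with and without it. The brains of a group are labelled as separate replicates, and the p-values measure the spread between them.

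The level of each collagen per kilobase of protein-coding transcript exons ranged over more than 2 orders of magnitude. Col6a1, a chain of type VI collagen, led with a mean of 13.3 CPM per kilobase over the 22 libraries. Col25a1, a membrane-anchored collagen of neurons, and Col4a2, a chain of the vascular basement membrane, followed at 7.16 and 7.04 CPM per kilobase. The next were the fibril-associated Col9a3 at 5.66, the basement membrane chain Col4a1 at 4.75 and the fibril-associated Col16a1 at 4.02 CPM per kilobase. Col10a1, known from the growth plate of bone, was lowest at 0.0787 CPM per kilobase, with 2 to 12 counts in a library. Of the chains that make the bulk of fibrils in skin and bone, Col1a2 reached 3.22, Col1a1 1.66 and Col3a1 0.373 CPM per kilobase. These orders depend on the exon length used. Col25a1 and Col1a2 have 6905 and 5348 bp in coding transcripts but 12947 and 12426 bp over all annotated exons. Col4a2 and Col1a1 change little, from 6450 to 6619 bp and from 5930 to 6563 bp. Over all annotated exons Col25a1 would therefore fall below Col4a2, and Col1a2 would stand near Col1a1.

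**Figure D1:**
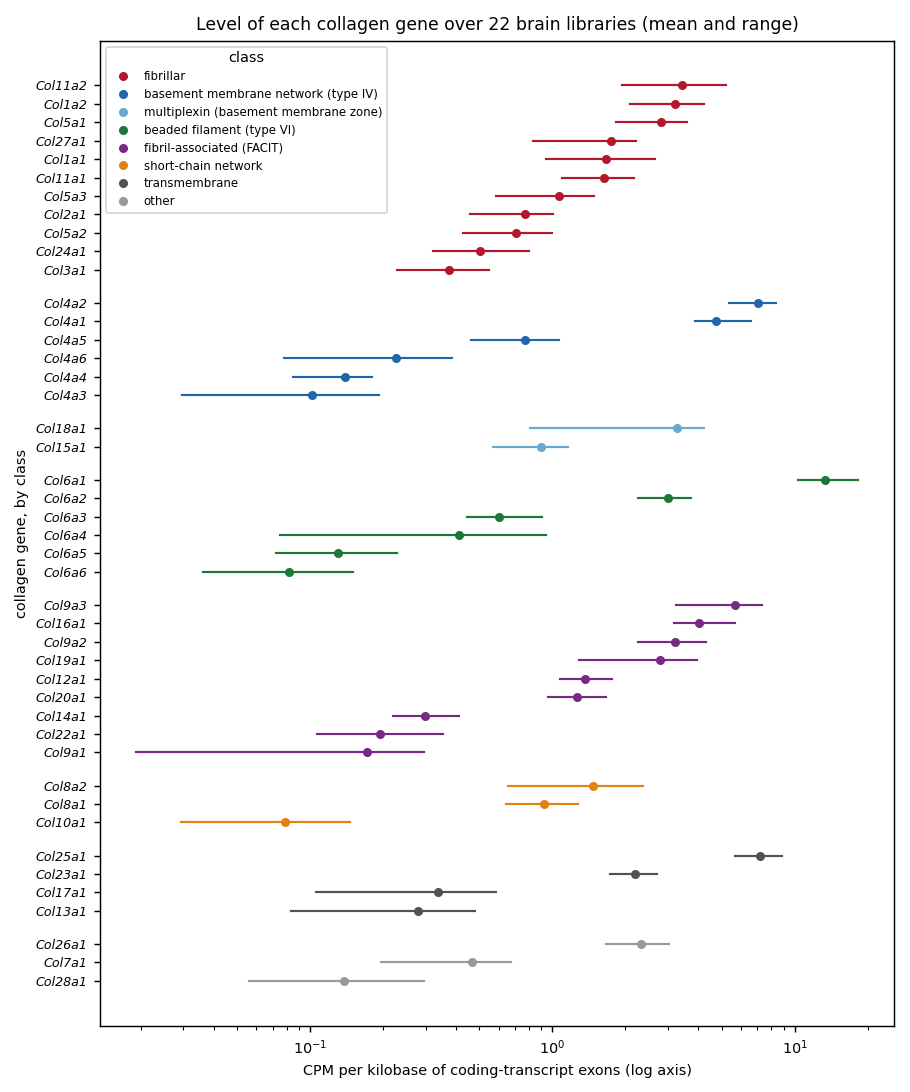
The level of each of the 44 collagen genes, in CPM per kilobase of protein-coding transcript exons on a log axis, grouped and coloured by class. The point is the mean and the line the range over 22 libraries. Col6a1, Col25a1 and Col4a2 stand highest, at 13.3, 7.16 and 7.04 CPM per kilobase, and each class also holds low members.

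Members of a class differed widely among themselves. Among the 6 type VI genes, per kilobase means ran from 13.3 CPM for Col6a1 through 3.00 for Col6a2 and 0.6 for Col6a3 to 0.0818 for Col6a6. Among the 6 type IV genes they ran from 7.04 CPM for Col4a2 and 4.75 for Col4a1 to 0.774 for Col4a5 and 0.102 for Col4a3, whose protein is best known from the filter of the kidney. The fibrillar genes were led by Col11a2 at 3.42 CPM per kilobase, above Col1a2 and Col5a1 (2.81). In the remaining classes, Col18a1 (3.26), the precursor of endostatin, stood above Col15a1 (0.897); Col8a2 (1.47) and Col8a1 (0.921) above Col10a1; Col23a1 (2.19) above Col17a1 (0.338), a skin adhesion collagen; and Col26a1 (2.32) above Col7a1 (0.467), the anchoring fibril collagen of skin, and Col28a1 (0.139), all in CPM per kilobase. Share of the summed collagen CPM was spread over the classes, with medians of 24.2% for fibrillar genes, 17.7% for fibril-associated genes, 17.1% for type IV, 16.9% for type VI, 13.2% for membrane-anchored genes and 5.65% for the Col15a1 and Col18a1 pair.

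Partner chains of one molecule were compared within each library, per kilobase. Col6a1 exceeded Col6a2 by 3.81 ± 0.325 times in GWCBD30LPS and 4.41 ± 0.544 times in GWCBD30 brains, 4.61 ± 0.621 times in GWVehLPS and 4.66 ± 0.179 times in GWVeh brains (SD, n = 4 each), and 4.92 ± 0.144 times in CtrlVehLPS and 4.54 ± 0.546 times in CtrlVeh brains (SD, n = 3 each). Col6a3, the largest type VI chain, stood at 0.0394 to 0.0511 of Col6a1 in the group means. The Col4a1 to Col4a2 ratio had group means of 0.683 (GWCBD30LPS) and 0.638 (GWCBD30), 0.742 (GWVehLPS) and 0.624 (GWVeh), and 0.721 (CtrlVehLPS) and 0.669 (CtrlVeh). Col1a1 to Col1a2 gave group means from 0.387 to 0.611, but from 0.813 to 1.28 when the length covered all annotated exons, so its value depends on the transcripts counted. On that longer length, group means ran from 4.95 to 6.39 for Col6a1 to Col6a2 and from 0.567 to 0.675 for Col4a1 to Col4a2.

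The first comparison asked how collagen genes stood a day after LPS, in each arm and averaged over the 3 arms. The summed CPM of all collagens was 463 ± 35.1 in GWCBD30LPS and 527 ± 35 in GWCBD30 brains, 465 ± 24.7 in GWVehLPS and 534 ± 38.2 in GWVeh brains (SD, n = 4 each), and 447 ± 27.7 in CtrlVehLPS and 499 ± 18.8 in CtrlVeh brains (SD, n = 3 each). The LPS brains lay between 413 and 494 CPM and the PBS brains between 477 and 562 CPM, with 9 of 11 LPS brains below every PBS brain. Sums of type VI genes ran from 65.9 to 87.8 CPM in LPS brains and 79 to 114 CPM in PBS brains, and those of fibrillar genes from 88.5 to 122 CPM in LPS brains and 114 to 144 CPM in PBS brains. No test was made on these sums.

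**Figure D2:**
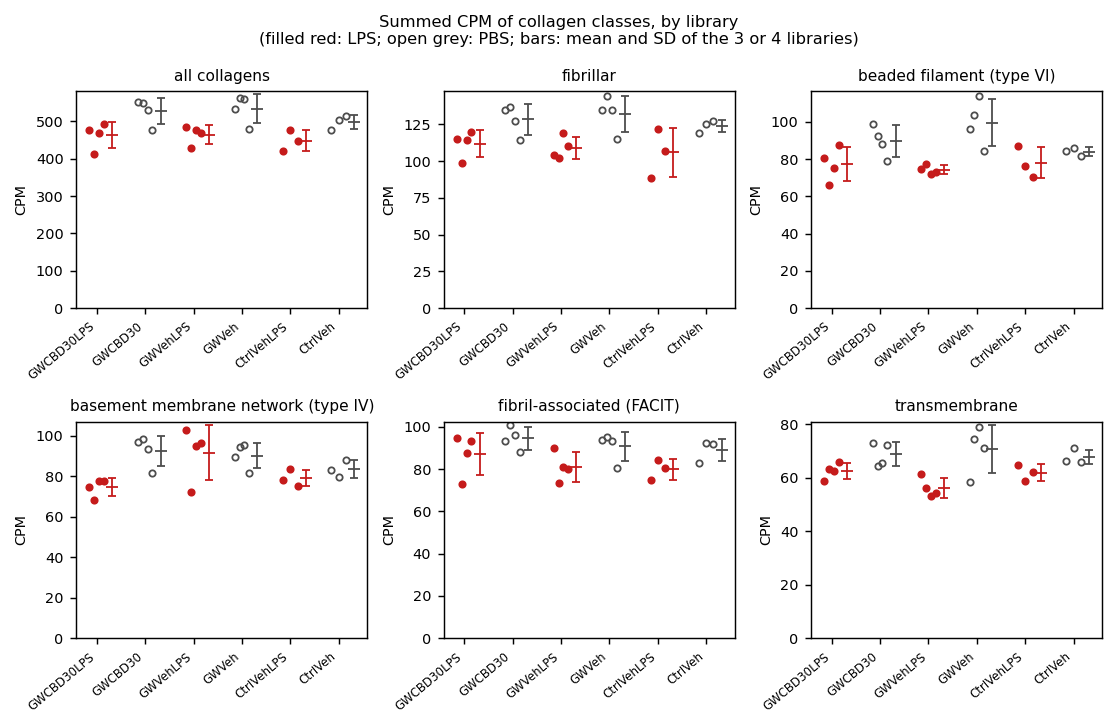
Summed CPM of all collagens and of the 5 largest classes in each library, by group; filled red points are LPS brains, open grey points PBS brains, and bars the mean and SD of the 3 or 4 libraries. All-collagen sums of 9 of 11 LPS brains lie below the lowest PBS brain (477 CPM), and GWCBD30LPS brains have type IV sums of 68.4 to 77.7 CPM.

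Averaged over the arms, 6 collagens were lower after LPS at an adjusted p under 0.05 and 0 were higher (edgeR's quasi-likelihood test, Benjamini-Hochberg adjustment over all genes tested). These were Col5a1 and Col11a1 of the fibrillar genes, Col6a1 and Col6a2 of type VI, Col4a6 of type IV and the membrane-anchored Col25a1. Over all 20026 genes, 1.03% were called lower and 2.49% higher in the same comparison. DESeq2 called 6 collagens lower and 0 higher. With the called genes included, 15 of 43 collagens had an unadjusted p under 0.05 (34.9%, against 17.8% of all genes), 14 of them negative. The log2 fold change was negative for 35 of 43 collagens, with a median of -0.180, whereas 52.6% of all genes were negative with a median of -0.007. Without CtrlVehLPS replicate 1, 33 of 43 were negative, with a median of -0.137, 13 had an unadjusted p under 0.05 and 5 were called. Without the filter on low counts 9 were called lower, with Col11a2, Col4a2 and Col19a1 added. For this fit, DESeq2 and the other alternatives, the share of all genes called was not computed. Their added calls therefore cannot be told from a rise in calls over all genes.

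**Figure D3:**
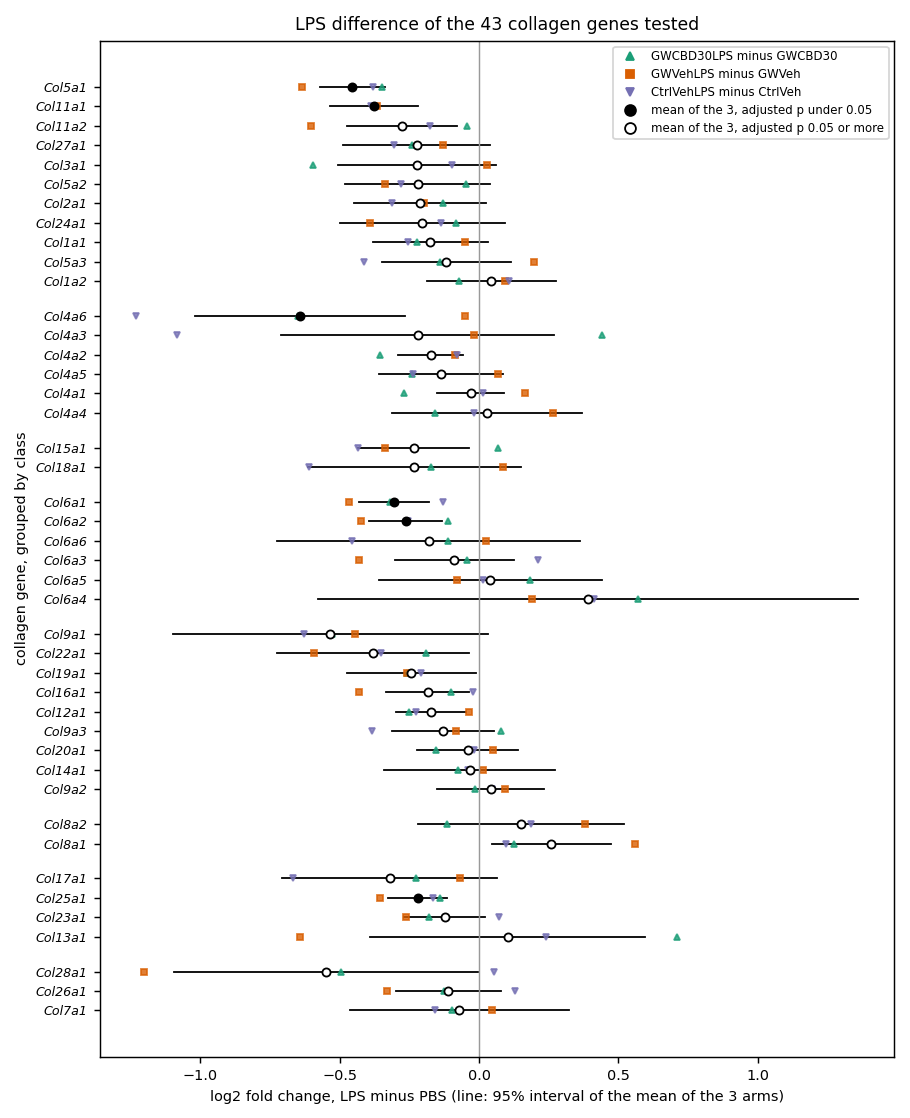
The log2 fold change of LPS against PBS for the 43 tested collagens by class; coloured marks are the 3 arms, round points the mean of the arms (filled at adjusted p under 0.05), and lines their 95% interval. The filled points are the 6 called collagens, between -0.64 (Col4a6) and -0.22 (Col25a1), and 35 of the 43 means lie below 0.

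Among the arms, 4 collagens were called lower in exposed vehicle mice, in which 0.11% of all genes were called lower and 0.829% higher: Col5a1, Col6a1, Col6a2 and Col25a1. In total 14 collagens passed an unadjusted p of 0.05 there (32.6%, against 10.4% of all genes). DESeq2 called 5 lower in this arm, Col11a2 in addition, and 6 were called without the filter on low counts, Col11a2 and Col16a1 in addition. In exposed CBD mice 0 collagens were called (0 by DESeq2), with 8 at an unadjusted p under 0.05 (18.6%, against 8.22% of all genes). There edgeR called 0% of all genes lower and 0.00499% higher. In control mice 0 were called (0 by DESeq2), with 7 at an unadjusted p under 0.05 (16.3%, against 12.2% of all genes), and 9 without CtrlVehLPS replicate 1. In controls edgeR called 0.0799% of all genes lower and 0.414% higher. Negative fold changes numbered 36 of 43 in exposed CBD mice, 28 in exposed vehicle mice and 31 in controls (27 in controls without CtrlVehLPS replicate 1). That a gene passed in one arm and not in another does not show a difference between arms, and the tests of that difference are given below.

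Col5a1 encodes a chain of type V collagen, which joins type I collagen in fibrils and sets their width. The gene (ENSMUSG00000026837) lies on chr2:27886425-28039514 of GRCm38, plus strand. In exposed CBD brains it measured 22, 19.7, 20.3 and 23.0 CPM after LPS, against 24.9, 28.2, 28.8 and 26.3 CPM after PBS. In exposed vehicle brains it measured 18.4, 15.4, 18.3 and 21.3 CPM after LPS, against 30.3, 29.2, 27.8 and 26.2 CPM after PBS. In control brains the values were 21.4, 21.8 and 17.0 CPM after LPS and 23.9, 26.0 and 28.6 CPM after PBS. Groups did not overlap in any arm, and each of the 11 LPS brains was below each of the 11 PBS brains. Averaged over arms it fell by 0.45 ± 0.06 on the log2 scale (SE; adjusted p = 4.14e-06, edgeR's quasi-likelihood test), and in exposed vehicle mice by 0.63 ± 0.09 (adjusted p = 0.00011). The call held in all 27 alternatives for the mean of the arms and in all 14 for exposed vehicle mice. Its exons share 99 and 113 bp with a pair of opposite-strand transcripts, 1.17% and 1.33% of its exon length, and the strand setting of the counting is not given in the sources used here.

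Col11a1 encodes a chain of type XI collagen, a close relative of type V that is best known from cartilage. The gene (ENSMUSG00000027966) lies on chr3:114030540-114220718, plus strand. In exposed CBD brains it measured 11.2, 10.3, 12 and 10.2 CPM after LPS, against 16.7, 15.1, 11.7 and 13.4 CPM after PBS. Exposed vehicle brains had 10.1, 9.57, 13.9 and 10.9 CPM after LPS, against 15.9, 14.4, 14.9 and 12.2 CPM after PBS. Control brains had 10.7, 12.9 and 8.43 CPM after LPS, against 14.1, 14.3 and 13.5 CPM after PBS. LPS and PBS brains did not overlap in controls and overlapped through 1 brain on each side in the other 2 arms. Averaged over arms the gene fell by 0.38 ± 0.08 on the log2 scale (SE; adjusted p = 0.00342, edgeR), and the arms gave -0.37, -0.37 and -0.39 (exposed CBD, exposed vehicle, control). Of the other fibrillar genes, Col11a2 had a log2 fold change of -0.28 ± 0.09 (adjusted p = 0.115) and Col1a2 0.04 ± 0.11 (adjusted p = 0.886). In all, 10 of the 11 fibrillar genes were negative, with a median of -0.221.

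Col6a1 and Col6a2 encode chains that must join with a larger partner to form type VI filaments, and loss of either causes muscle disease in humans. They lie on the minus strand of the same chromosome, Col6a1 (ENSMUSG00000001119) on chr10:76708792-76726168 and Col6a2 (ENSMUSG00000020241) on chr10:76595762-76623630, with 85161 bp between them. Col6a1 measured 51.7, 42.2, 43.3 and 54.2 CPM in GWCBD30LPS brains, against 69.7, 60.9, 57.7 and 50.2 CPM in GWCBD30 brains. It measured 47.9, 48.1, 48.4 and 46.7 CPM in GWVehLPS brains, against 64.3, 69.3, 75.1 and 55.3 CPM in GWVeh brains. In CtrlVehLPS brains it had 57.9, 47.7 and 45.5 CPM, against 58.3, 58.0 and 49.3 CPM in CtrlVeh brains. The groups were apart in exposed vehicle mice and overlapped in the other 2 arms. Col6a1 fell by 0.30 ± 0.06 on the log2 scale averaged over arms (SE; adjusted p = 0.00395, edgeR) and by 0.47 ± 0.10 in exposed vehicle mice (adjusted p = 0.0153).

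Col6a2 measured 17.6, 16.6, 17.6 and 21.8 CPM in GWCBD30LPS brains, against 19.6, 21.1, 20.4 and 18.2 CPM in GWCBD30 brains. In GWVehLPS brains it had 16.0, 18.3, 13.7 and 13.6 CPM, against 21.0, 21.9, 22.4 and 17.6 CPM in GWVeh brains. CtrlVehLPS brains had 16.7, 14.5 and 13.7 CPM, against 16.6, 19.4 and 17.7 CPM in CtrlVeh brains. Groups overlapped in every arm, by 1 LPS brain and 1 PBS brain among exposed vehicle mice and among controls. Col6a2 fell by 0.26 ± 0.06 averaged over arms on the log2 scale (SE; adjusted p = 0.0147, edgeR) and by 0.43 ± 0.10 in exposed vehicle mice (adjusted p = 0.0339). The third chain of the filament, Col6a3, had log2 fold changes of -0.04 ± 0.17 in exposed CBD mice, -0.43 ± 0.17 in exposed vehicle mice and 0.21 ± 0.20 in controls, with a mean of -0.09 (adjusted p = 0.716).

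Col25a1 (ENSMUSG00000058897), on chr3:130131501-130599877 (plus strand), encodes a membrane-anchored collagen of neurons, part of which is found in the amyloid plaques of human Alzheimer brains. It measured 44.4, 50.6, 49.4 and 48.6 CPM in GWCBD30LPS brains, against 57.9, 49.0, 49.4 and 56.3 CPM in GWCBD30 brains. In GWVehLPS brains it had 47.5, 41.6, 40.6 and 39.0 CPM, against 43.4, 58.1, 61.1 and 53.2 CPM in GWVeh brains. CtrlVehLPS brains had 50.5, 43.9 and 45.9 CPM, against 51.3, 55.4 and 51 CPM in CtrlVeh brains. Groups were apart in controls only, by a narrow gap, and GWVeh replicate 1 lay among the LPS brains. The gene fell by 0.22 ± 0.05 averaged over arms on the log2 scale (SE; adjusted p = 0.0101, edgeR) and by 0.35 ± 0.08 in exposed vehicle mice (adjusted p = 0.0264). With the olfactory bulb and cerebellar markers as covariates the mean of the arms was -0.22 as before, with an adjusted p of 0.0747. Under those covariates Col5a1, Col11a1, Col6a1 and Col6a2 remained called, and 33 of 43 collagens were negative.

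Col4a6 (ENSMUSG00000031273), on chrX:141165403-141474076 (minus strand), encodes a type IV chain that pairs with Col4a5 in basement membranes of smooth muscle and skin. It was a low gene, at 1.27, 0.928, 1.34 and 1.22 CPM in GWCBD30LPS brains, against 1.98, 1.71, 1.74 and 2.08 CPM in GWCBD30 brains. GWVehLPS brains had 1.36, 1.26, 2.53 and 1.01 CPM, against 1.47, 1.31, 2.49 and 1.09 CPM in GWVeh brains. CtrlVehLPS brains had 0.518, 0.9 and 1.17 CPM, against 1.59, 1.71 and 2.56 CPM in CtrlVeh brains. Groups were apart in exposed CBD mice and in controls and overlapped fully in exposed vehicle mice. Averaged over arms it fell by 0.64 ± 0.19 on the log2 scale (SE; adjusted p = 0.0461, edgeR), but the call held in only 10 of 27 alternatives. Without CtrlVehLPS replicate 1 the adjusted p was 0.0931, and leaving out any of 16 of the 22 libraries in turn ended the call.

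**Figure D4:**
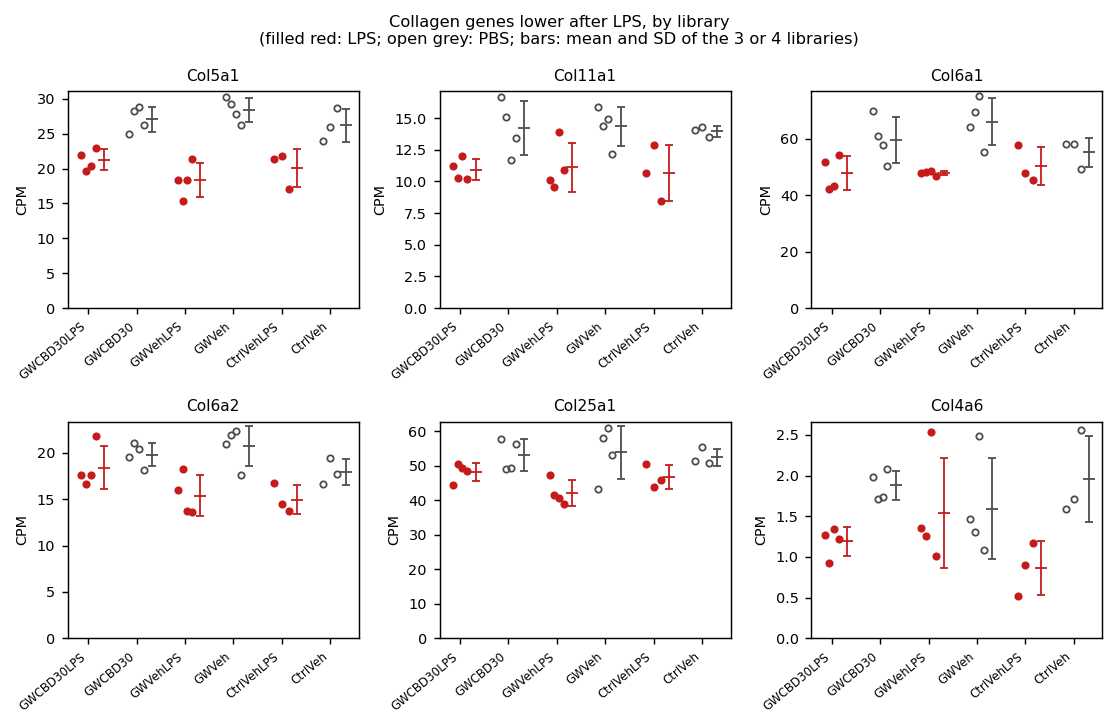
CPM of the 6 collagens called lower after LPS averaged over arms, in each library by group; filled red points are LPS brains, open grey points PBS brains, and bars the mean and SD of the 3 or 4 libraries. Col5a1 shows no overlap (15.4 to 23.0 CPM after LPS, 23.9 to 30.3 CPM after PBS), and Col4a6 overlaps fully in exposed vehicle mice.

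Leaving out single libraries ended calls within exposed vehicle mice. Col6a1 was no longer called there without GWVeh replicate 2, GWVeh replicate 3, GWVehLPS replicate 1 or GWVehLPS replicate 4 (highest adjusted p 0.0796, edgeR). Col6a2 lost its call in this arm without any of 6 of the 8 libraries (highest adjusted p 0.142), and Col25a1 likewise without any of 6 (highest adjusted p 0.169). Averaged over arms, Col5a1, Col6a1, Col6a2, Col25a1 and Col11a1 stayed called when any of the 22 libraries was left out.

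The upstream sequences of the 6 collagens called lower averaged over arms are shown because their levels moved in the same direction. The windows come from RefSeq (GRCm38.p6) and run from 250 bases before to 50 bases after the annotated start, on the strand of the gene. They are chr2:27886175-27886474 (plus) for Col5a1, chr3:114030290-114030589 (plus) for Col11a1, chr10:76725995-76726294 (minus) for Col6a1, chr10:76623355-76623654 (minus) for Col6a2, chr3:130180595-130180894 (plus) for Col25a1 and chrX:141474027-141474326 (minus) for Col4a6. The Col25a1 window lies inside the gene as GENCODE draws it, and of the pair of Col6a2 windows in the table the first is printed. Capitals mark GGGCGG, the GC box bound by Sp1 family factors, and CCAAT, bound by NF-Y, on either strand.
Col5a1: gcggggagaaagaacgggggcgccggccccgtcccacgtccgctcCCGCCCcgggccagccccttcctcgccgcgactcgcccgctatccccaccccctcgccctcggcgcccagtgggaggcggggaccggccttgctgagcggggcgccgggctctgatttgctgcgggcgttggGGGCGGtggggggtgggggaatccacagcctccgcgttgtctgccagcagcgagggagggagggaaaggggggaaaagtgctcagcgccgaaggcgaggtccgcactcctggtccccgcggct
Col11a1: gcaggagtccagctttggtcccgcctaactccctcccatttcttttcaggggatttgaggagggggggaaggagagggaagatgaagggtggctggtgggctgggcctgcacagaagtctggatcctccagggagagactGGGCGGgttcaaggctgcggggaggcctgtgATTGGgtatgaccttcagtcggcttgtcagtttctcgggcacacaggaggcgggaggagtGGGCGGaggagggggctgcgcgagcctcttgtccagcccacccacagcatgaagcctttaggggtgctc
Col6a1: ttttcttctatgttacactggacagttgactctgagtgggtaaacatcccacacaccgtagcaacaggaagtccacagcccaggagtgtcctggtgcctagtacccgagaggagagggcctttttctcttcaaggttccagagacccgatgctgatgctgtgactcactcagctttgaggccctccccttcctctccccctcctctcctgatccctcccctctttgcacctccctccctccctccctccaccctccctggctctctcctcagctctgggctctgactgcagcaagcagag
Col6a2: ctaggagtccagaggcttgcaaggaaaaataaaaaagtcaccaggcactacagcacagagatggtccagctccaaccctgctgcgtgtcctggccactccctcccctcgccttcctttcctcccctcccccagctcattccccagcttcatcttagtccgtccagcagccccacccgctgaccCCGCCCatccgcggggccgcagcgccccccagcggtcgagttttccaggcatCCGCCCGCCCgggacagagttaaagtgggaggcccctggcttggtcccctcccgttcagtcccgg
Col25a1: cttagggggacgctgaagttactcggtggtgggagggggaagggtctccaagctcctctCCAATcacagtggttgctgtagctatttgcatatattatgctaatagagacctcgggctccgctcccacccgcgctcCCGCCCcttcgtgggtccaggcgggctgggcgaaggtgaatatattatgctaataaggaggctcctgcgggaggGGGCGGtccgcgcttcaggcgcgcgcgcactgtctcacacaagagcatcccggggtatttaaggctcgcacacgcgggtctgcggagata
Col4a6: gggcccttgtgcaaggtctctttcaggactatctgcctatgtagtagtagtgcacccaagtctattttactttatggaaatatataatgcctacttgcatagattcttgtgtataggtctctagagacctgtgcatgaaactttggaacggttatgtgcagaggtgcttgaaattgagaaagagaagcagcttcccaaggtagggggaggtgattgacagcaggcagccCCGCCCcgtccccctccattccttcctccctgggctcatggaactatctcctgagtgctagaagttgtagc

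GGGCGG stood 2 times each in the windows of Col5a1, Col11a1 and Col25a1, 3 times in the printed Col6a2 window (2 of them overlapping) and 1 time in its other window, 1 time in that of Col4a6 and 0 times in that of Col6a1. CCAAT stood 1 time each in the windows of Col11a1 and Col25a1 and 0 times in the others. The 44 collagens had 38 windows for 35 members in the RefSeq table. Of these windows, 60.5% held GGGCGG on either strand, against 35.7% of all 32851 windows of the same length, and 34.2% held CCAAT, against 37.4%. TATAAA, the TATA box, was in 13.2% of collagen windows and 13.6% of all windows, and CACCTG, an E-box, in 13.2% of collagen windows and 20.2% of all windows. Collagen windows had a median GC content of 59.8%, against 52.7% for all windows, and the motifs were not compared at matched GC content.

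Not all collagens were lower. Col8a1, a short-chain collagen of vessel walls and the inner cornea, measured 4.6 ± 0.85 CPM in GWCBD30LPS and 4.22 ± 0.272 CPM in GWCBD30 brains, 6.09 ± 0.581 CPM in GWVehLPS and 4.15 ± 0.567 CPM in GWVeh brains (SD, n = 4 each), and 4.73 ± 0.994 CPM in CtrlVehLPS and 4.34 ± 1.07 CPM in CtrlVeh brains (SD, n = 3 each). Its 4 GWVehLPS brains were above its 4 GWVeh brains, with a log2 fold change of 0.56 ± 0.17 (adjusted p = 0.126, edgeR), and it was the only collagen with a positive change at an unadjusted p under 0.05 in the mean of the arms (0.26 ± 0.10, adjusted p = 0.171). Col8a2 gave 0.15 ± 0.18 (adjusted p = 0.714). Neither change passed the test.

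The main chains of the vascular basement membrane did not pass the test in the mean of the arms, at -0.17 ± 0.06 for Col4a2 (95% interval -0.29 to -0.06, adjusted p = 0.0855, edgeR; 0.0234 without the filter on low counts) and -0.03 ± 0.06 for Col4a1 (-0.15 to 0.09, adjusted p = 0.846). The fibril-associated Col9a3, Col16a1 and Col12a1 gave -0.13, -0.18 and -0.17, with adjusted p from 0.121 to 0.474. Col15a1 and Col18a1 both gave -0.23. Col18a1 had 5.51 CPM in CtrlVehLPS replicate 1 and 17.2 to 28.7 CPM in the other libraries, and its value of -0.61 ± 0.35 in controls became -0.16 ± 0.21 without that library, and its mean of the arms -0.08 ± 0.10. Col23a1, Col17a1, Col26a1, Col7a1 and Col28a1 ranged from -0.55 to -0.07, each with an adjusted p above the threshold.

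The next comparison asked whether the chemical exposure in youth had left a difference in collagen expression in old age, against control mice. Under LPS 0 collagens were called (0 by DESeq2), with 9 at an unadjusted p under 0.05 (20.9%, against 7.73% of all genes, of which 0.00499% were called). Without CtrlVehLPS replicate 1 that number was 3. Without LPS 0 were called (0 by DESeq2), with 4 at an unadjusted p under 0.05 (9.3%, against 8.8% of all genes, of which 0% were called). Averaged over both states 0 were called (0 by DESeq2), with 5 at an unadjusted p under 0.05 (11.6%, against 7.76% of all genes, of which 0.03% were called). The averaged fold change was positive for 31 of 43 collagens, with a median of 0.074 against 0.006 for all genes. Without CtrlVehLPS replicate 1, 25 of 43 were positive (median 0.046) and 4 had an unadjusted p under 0.05, and under LPS 21 were positive, against 26 with it.

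Col1a1 and Col19a1 are described because they had the smallest p in the averaged exposure comparison, and were chosen after their values were seen. Col1a1, the main chain of type I collagen, lies on chr11:94936224-94953042. It measured 10.8, 14.3, 9.29 and 10.4 CPM in GWVehLPS brains, against 5.58, 8.21 and 8.78 CPM in CtrlVehLPS brains. Without LPS it measured 9.96, 10.0, 15.7 and 10.6 CPM in GWVeh brains, against 9.11, 10.0 and 7.57 CPM in CtrlVeh brains. The groups were apart under LPS and overlapped without it. The averaged log2 fold change was 0.49 ± 0.13 (SE; unadjusted p = 0.000596, adjusted p = 0.393, edgeR). Under LPS it was 0.59, and 0.40 without CtrlVehLPS replicate 1.

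Col19a1, a fibril-associated collagen that in mice takes part in forming inhibitory synapses, lies on chr1:24261890-24587472. It measured 12.4, 5.71, 9.06 and 9.02 CPM in GWVehLPS brains, against 13.2, 15.2 and 10.9 CPM in CtrlVehLPS brains. In GWVeh brains it had 8.54, 9.04, 14 and 11.7 CPM, against 15.2, 17.5 and 12.9 CPM in CtrlVeh brains. Groups overlapped in both states, by 1 exposed brain each. The averaged log2 fold change was -0.51 ± 0.14 (SE; adjusted p = 0.401, edgeR). Without the filter on low counts the averaged difference passed the threshold for both genes (adjusted p = 0.00264 for Col1a1 and 0.000115 for Col19a1, edgeR). The fold changes were 0.49 and -0.51 as before, and why the adjusted p fell was not tested. Each gene was called in only 1 of 20 alternatives, and DESeq2 called neither. For Col5a1, the collagen with the clearest LPS difference, the averaged exposure difference was -0.01 (95% interval -0.16 to 0.13).

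The last set of comparisons asked whether CBD treatment of exposed mice went with other collagen levels than vehicle, and how their brains stood against controls. These comparisons share the exposed vehicle groups with the exposure comparison. Under LPS 0 collagens were called (0 by DESeq2), with 11 at an unadjusted p under 0.05, 5 negative and 6 positive (25.6%, against 7.1% of all genes, of which 0.24% were called). Without LPS 0 were called (0 by DESeq2), with 2 at an unadjusted p under 0.05 (4.65%, against 6.43% of all genes, of which 0% were called). In the mean of both states 0 were called (0 by DESeq2), with 6 at an unadjusted p under 0.05 (14%, against 8.35%, with 0% called).

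All 6 type IV genes were negative for CBD under LPS, from -0.37 to -0.24 with a median of -0.320, while the median of all 43 collagens was -0.001. Of the 43, 22 were negative, as were 49.8% of all genes. The 2 short-chain genes tested were negative too (median -0.398). Only 2 of the 6 type IV genes had an unadjusted p under 0.05 (edgeR), and Col4a3, Col4a4 and Col4a6 were low, with means of 0.869, 1.41 and 1.51 CPM. Without LPS, 1 of the 6 was negative for CBD (median 0.046). For exposure under LPS, which uses the same GWVehLPS brains, 0 of the 6 were negative (median 0.228). Without CtrlVehLPS replicate 1, Col4a4 was -0.17 in that exposure comparison, against 0.01 with it. Col4a3 and Col4a4 lie 71 bp apart and Col4a5 and Col4a6 1308 bp apart, so the 6 genes may not vary independently. Col4a1 measured 28.0, 25.7, 26.2 and 30.1 CPM in GWCBD30LPS brains, against 43.7, 28.0, 33.0 and 36.9 CPM in GWVehLPS brains. Col4a2 measured 40.4, 34.6, 42.0 and 40.6 CPM in GWCBD30LPS brains, against 50.3, 35.2, 50.3 and 51.1 CPM in GWVehLPS brains. Groups overlapped for both genes through GWVehLPS replicate 2, whose values lay among those of the CBD brains. The log2 fold changes were -0.37 ± 0.10 for Col4a1 (SE; adjusted p = 0.118, edgeR) and -0.24 ± 0.09 for Col4a2 (adjusted p = 0.499). Without GWVehLPS replicate 2 they were -0.46 (adjusted p = 0.0097) and -0.36 (adjusted p = 0.0341), and across all alternatives the adjusted p ran from 0.0086 to 0.489 for Col4a1 and from 0.0341 to 0.813 for Col4a2.

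Markers of endothelial cells, which line the vessels, were followed in the same comparison. All 7 were negative for CBD under LPS, and 3 of them were called, against 0.24% of all genes. These were Cldn5, Ly6c1 and Pecam1, which fell by 0.59, 0.99 and 0.82 on the log2 scale. Endothelial sums were 105 to 111 CPM in GWCBD30LPS and 134 to 150 CPM in GWVehLPS brains, with no marker at 0. Other lists also leaned negative, with 8 of 8 cerebellar, 8 of 9 olfactory bulb and 5 of 6 choroid plexus markers, 0 of them called. So did 9 of 14 fibroblast, 4 of 6 olfactory ensheathing and 2 of 3 pituitary markers, again with 0 called. Of 3 microglia markers 2 were negative, and Tmem119 was called lower. By contrast, 4 of 8 mural, 1 of 3 astrocyte, 1 of 3 oligodendrocyte and 0 of 3 neuron markers were negative. Mural cell markers summed to 122 to 133 CPM in GWCBD30LPS and 115 to 134 CPM in GWVehLPS brains. GWVehLPS replicate 2, low for Col4a1 and Col4a2, had an endothelial sum of 147 CPM. The part of endothelial content in the type IV values was not tested.

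Col4a1 and Col4a2 lie head to head on chr8:11198423-11312826 (minus) and chr8:11312805-11449287 (plus), with 22 bp of shared exon, so a few reads may count for either. Their RefSeq windows share 78 bases, chr8:11312777-11312854, which are the last 78 of the Col4a2 window shown here (chr8:11312555-11312854, plus strand, GRCm38.p6) with GGGCGG and CCAAT in capitals as before. It is printed because the pair is transcribed from it in opposite directions.
Col4a2: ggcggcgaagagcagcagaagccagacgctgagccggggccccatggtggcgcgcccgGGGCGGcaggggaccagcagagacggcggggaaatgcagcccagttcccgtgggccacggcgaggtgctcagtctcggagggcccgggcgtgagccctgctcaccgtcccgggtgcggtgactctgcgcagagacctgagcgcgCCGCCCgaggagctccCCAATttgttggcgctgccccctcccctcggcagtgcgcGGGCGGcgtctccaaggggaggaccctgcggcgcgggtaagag

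**Figure D5:**
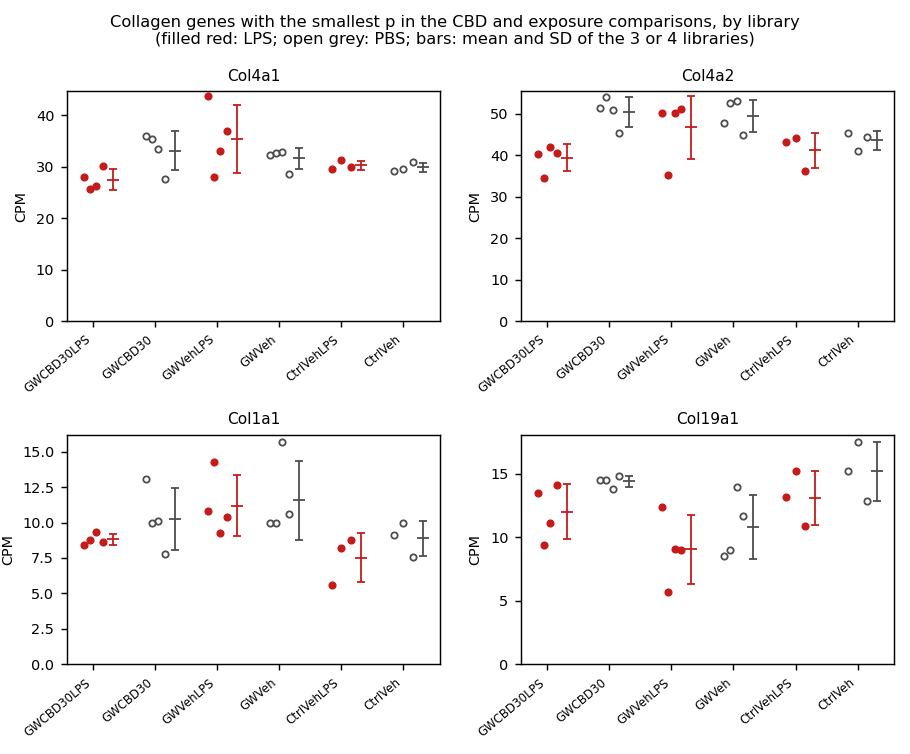
CPM of Col4a1, Col4a2, Col1a1 and Col19a1 in each library by group; filled red points are LPS brains, open grey points PBS brains, and bars the mean and SD of the 3 or 4 libraries. GWVehLPS replicate 2 (28.0 CPM for Col4a1, 35.2 CPM for Col4a2) lies among the GWCBD30LPS brains, and none of the 4 genes passed the threshold in these comparisons.

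Other collagens with an unadjusted p under 0.05 for CBD under LPS included Col11a2 (0.51 ± 0.16, adjusted p = 0.302, edgeR), Col8a1 (-0.41 ± 0.17, adjusted p = 0.555), Col6a2 (0.25 ± 0.10, adjusted p = 0.584), Col5a1 (0.22 ± 0.09, adjusted p = 0.624) and Col25a1 (0.19 ± 0.08, adjusted p = 0.628). Besides Col4a1 and Col4a2, the rest of the 11 were Col5a3, Col1a1, Col19a1 and Col13a1, between -0.44 and 0.86. The GWVehLPS brains are shared with the LPS comparison in exposed vehicle mice. CBD brains under LPS measured against controls under LPS gave 0 collagens called (0 by DESeq2) and 2 at an unadjusted p under 0.05 (4.65%, against 6.23% of all genes, of which 0.0699% were called; 3 without CtrlVehLPS replicate 1). CBD brains against controls without LPS gave 0 called (0 by DESeq2) and 4 at an unadjusted p under 0.05 (9.3%, against 3.1% of all genes, of which 0% were called).

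Whether the LPS difference itself changed with exposure or with CBD was tested by interaction terms. For CBD, set against vehicle in exposed mice, 0 collagens were called (0 by DESeq2), with 6 at an unadjusted p under 0.05 (14%, against 5.69% of all genes, of which 0.0449% were called). The smallest p belonged to Col4a1, at -0.43 ± 0.14 on the log2 scale (adjusted p = 0.610, edgeR). For exposure, set against control, 0 were called (0 by DESeq2), with 5 at an unadjusted p under 0.05 (11.6%, against 8.43% of all genes, of which 0% were called), and 3 without CtrlVehLPS replicate 1. Col5a1 gave 0.29 ± 0.13 for CBD (95% interval 0.02 to 0.56) and -0.25 ± 0.14 for exposure (-0.55 to 0.04), and Col6a1 gave 0.15 ± 0.14 for CBD and -0.34 ± 0.15 for exposure. Without CtrlVehLPS replicate 1 the exposure terms were -0.20 ± 0.15 for Col5a1 and -0.22 ± 0.15 for Col6a1. Thus 0 collagens had an LPS difference that depended on the arm at the adjusted threshold, while several of these intervals are as wide as the LPS differences themselves.

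Genes that process, bind or break down collagen were taken from a list of 82, of which 77 were tested. Averaged over arms, 3 of them were higher after LPS (3.9%, against 2.49% of all genes) and 1 lower (1.3%, against 1.03%), shares near those of all genes. Sparc, a secreted protein that binds collagen, rose by 0.48 ± 0.07 on the log2 scale (SE; adjusted p = 0.000184, edgeR), with 518 to 594 CPM in GWCBD30LPS and 351 to 436 CPM in GWCBD30 brains, 629 to 863 CPM in GWVehLPS and 382 to 598 CPM in GWVeh brains, and 558 to 645 CPM in CtrlVehLPS and 416 to 465 CPM in CtrlVeh brains. The groups did not overlap within any arm. Adgrg1, a receptor that binds type III collagen in the developing mouse brain, rose by 0.27 ± 0.06 (adjusted p = 0.00975), and P4ha1, which hydroxylates collagen prolines, by 0.19 ± 0.05 (adjusted p = 0.0153). Adamts3, which trims procollagen ends, fell by 0.25 ± 0.06 (adjusted p = 0.0138). In exposed vehicle mice Sparc was the only one of the 77 called (0.53 ± 0.11, adjusted p = 0.0162; 1.3%, against 0.829% of all genes called higher), and the exposure, CBD and interaction comparisons called 0 of the 77. The collagen chaperone Serpinh1 (0.09 ± 0.07, adjusted p = 0.517), the crosslinking enzyme Lox (-0.36 ± 0.23, adjusted p = 0.44) and the gelatinase Mmp2 (-0.46 ± 0.16, adjusted p = 0.103) did not pass.

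Markers of the cells that make collagen did not all move one way with LPS. Of 14 markers of meningeal and perivascular fibroblasts, collagens left out, 10 were negative in the mean of the arms. An unadjusted p under 0.05 (edgeR) was reached by 10, in either direction, against 17.8% of all genes. Slc6a13 and Slc6a20a were called lower and fell by 0.52 and 0.34 on the log2 scale (adjusted p = 0.00235 and 0.00478, edgeR). Fbln1 was called higher and rose by 0.41 (adjusted p = 0.000752). Over all genes 1.03% were called lower and 2.49% higher. The 14 markers summed to 145 to 176 CPM in GWCBD30LPS and 167 to 182 CPM in GWCBD30 brains. The sums were 146 to 188 CPM in GWVehLPS and 152 to 186 CPM in GWVeh brains. In CtrlVehLPS brains they were 156 to 163 CPM and in CtrlVeh brains 146 to 178 CPM, with 0 of 14 markers at 0 in any library. Pdgfra alone gave 46.6 to 59.1 CPM, and the next highest, Dcn, 8.91 to 23.7 CPM. The sums thus weigh Pdgfra most, and its log2 fold change was 0.04 (adjusted p = 0.735, edgeR). Which cells the Pdgfra counts came from was not tested, so the sums are not taken as fibroblast content. The median of the 14 markers was -0.191, near the collagen median of -0.180. Mural cell markers had a median of 0.020 and 0 of 8 tested passed. All 7 endothelial markers were positive (median 0.172), and Ly6c1 rose by 0.63 (adjusted p = 3.69e-05). Endothelial sums were 105 to 111 CPM in GWCBD30LPS and 97.7 to 116 CPM in GWCBD30 brains, 134 to 150 CPM in GWVehLPS and 97.1 to 112 CPM in GWVeh brains, and 112 to 127 CPM in CtrlVehLPS and 102 to 121 CPM in CtrlVeh brains. The part of cell content in the lower collagen levels was not tested.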

How the data were processed

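Whole-brain RNA of 22 mice in 6 groups was sequenced as stranded libraries of poly(A) RNA, per the labels' protocols. The values are gene-level read counts as deposited by the authors, from reads aligned to GRCm38 (mm10), per the submitters' processing notes. Aligner, counter, annotation and strand mode were not given in the sources used here, so opposite-strand overlaps make the counts of a few collagens uncertain.

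Counts were scaled by TMM, filtered with filterByExpr, and fitted with edgeR 4.0.16 (glmQLFit with robust settings, glmQLFTest, two-sided) in R 4.3.3, with limma 3.58.1. All 6 group means entered 1 fit with 16 residual degrees of freedom, and 14 contrasts were tested. P-values were adjusted by Benjamini and Hochberg over 20026 genes, with a threshold of 0.05. CPM used TMM-scaled library sizes. Levels per kilobase used GENCODE M21 exons of protein-coding transcripts. Promoter windows came from RefSeq (GRCm38.p6). Depth was 17152595 to 31150515 counts per library, and floors of 3 counts cover counting error only.

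Alternatives were RLE scaling, no filter, DESeq2 1.42.0, a replicate block, bulb and cerebellar marker covariates, the groups of a contrast alone, and leaving out each library. Same-numbered libraries of different groups had correlations of -0.089 to 0.133 in their deviations, so the numbers were not taken as pairing. The fit was tested on simulated counts. The members, the classes and all lists were chosen with earlier results of these data known. Members named with values were those past the threshold in any contrast and the 3 highest of each class, and others named were chosen after their values were seen.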

Additional observations from a re-analysis of the deposited data

Results flagged for a closer look

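Among 100 groups of 4 brains examined for the named collagens, 7 held a brain far from the other 3, by Dixon's criterion, which chance alone meets in about 1 group in 20. In GWVehLPS brains, Col4a2 was 35.2 CPM in replicate 2 and 50.3 to 51.1 CPM in the rest, and without this library Col4a1 and Col4a2 were called for CBD under LPS. Col8a1 was 5.23 CPM in GWVehLPS replicate 4, against 6.29 to 6.5 CPM, and Col8a2 10.2 CPM in GWVehLPS replicate 1, against 7.08 to 7.47 CPM. In GWVeh brains, Col4a1 was 28.6 CPM in replicate 4, against 32.3 to 32.9 CPM, and replicate 1 had 5.78 CPM of Col7a1, against 3.85 to 4.02 CPM, and 22.3 CPM of Col9a3, against 16.7 to 17.5 CPM. In GWCBD30LPS brains, Col26a1 was 4.64 CPM in replicate 2, against 7.06 to 7.35 CPM.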

How the results depend on the processing

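Among recomputed counts of called collagens, 448 equalled the main count or stayed within 1.5 times it, and 14 did not. In the main fit only the counts lower for LPS in exposed vehicle mice (4) and averaged over arms (6) were above 0. For every other count, an unchanged value is 0 staying at 0. A change from 6 to 9 or from 4 to 6 also fell within 1.5 times, so this tally does not measure stability. No direction of a called value reversed. Without the filter on low counts, 9 collagens were called lower for LPS averaged over arms (Col11a2, Col4a2 and Col19a1 added, adjusted p = 0.00123, 0.0234 and 0.044, edgeR), 6 for LPS in exposed vehicle mice (Col11a2 and Col16a1 added, adjusted p = 2.77e-06 and 0.00278), 2 for LPS in exposed CBD mice (Col4a2, Col6a1), 1 higher (Col1a1) and 1 lower (Col19a1) for exposure under LPS and likewise 1 and 1 averaged over states, 1 higher (Col11a2) and 1 lower (Col4a1) for CBD under LPS, and 1 higher (Col19a1) for CBD averaged over states. With the groups of the contrast alone, 2 were called lower for LPS in exposed vehicle mice (Col5a1, Col6a1). The cause was not tested, and the share of all genes called was not computed for these settings. Leaving out each library in turn gave 1 to 4 called lower for LPS in exposed vehicle mice, 0 to 2 for CBD under LPS (2 without GWVehLPS replicate 2) and 5 to 7 for LPS averaged over arms. The replicate block called 4 lower in exposed vehicle mice and 6 averaged over arms, as in the fit without it, and 0 in all other comparisons, and changed no call. RLE scaling moved the median of all genes by at most 0.002 in the LPS comparisons, within arms and averaged over them. This shift was not computed for the other comparisons. Depth limits the low genes most: Col10a1 had 2 to 12 counts per library.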
